A study of Mus musculus with 15 samples.

Results

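A set of 10 genes that mark how epithelial or mesenchymal a cell is was followed in 2 expression tables, and all 10 were present in both, among 54343 gene entries for the mouse line MC38 and 55303 for the mouse line B16-F10. The members are given by symbol, with no threshold on a measured value: the keratins Krt8, Krt18, Krt7 and Krt19, the epithelial adhesion genes Epcam and Cdh1, the mesenchymal genes Cdh2 and Vim, and the transcription factors Snai2 and Zeb1. Polyadenylated RNA was measured in 15 libraries. MC38, a line of colon adenocarcinoma origin, was sequenced as 3 libraries of cells that stably overexpress murine Ssbp4 from the retroviral vector pMSCV-IRES-EGFP (OE) and 4 libraries of wild-type cells (WT). B16-F10, a melanoma line, was sequenced as 4 libraries of cells electroporated with Cas9 and a mixture of guide RNAs against Ssbp4 (KO) and 4 libraries of control cells (WT), which per the labels' protocols received Cas9 with a guide RNA to an intergenic region. The labels name no MC38 cells with an empty vector and do not say whether transduced or edited cells were cloned or sorted. The tissue label reads melanoma for MC38 as well, against the colon origin in its library names. The product of Ssbp4 binds single-stranded DNA, and the series title links it to immune evasion of tumours and to cholesterol synthesis.

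Keratins are the intermediate filaments of epithelial cells, and each filament is built from a type II keratin such as KRT8 or KRT7 paired with a type I keratin such as KRT18 or KRT19. E-cadherin (Cdh1) and EpCAM (Epcam) hold epithelial cells together, whereas N-cadherin (Cdh2) and the intermediate filament protein vimentin (Vim) are typical of mesenchymal cells. In the epithelial-mesenchymal transition, transcription factors of the Snail and Zeb families, among them Snai2 and Zeb1, repress Cdh1 and other epithelial genes through short E-box sequences in their promoters. Melanoma cells are of neural crest origin and normally carry vimentin and N-cadherin.

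Levels are in FPKM, in which fragment numbers are divided by gene length in kilobases and by M fragments mapped. Ssbp4 stood at 581, 559 and 462 FPKM in MC38 OE libraries, against 13.2, 17.3, 17.0 and 17.6 FPKM in MC38 WT libraries, and at 23.1, 22.0, 24.3 and 19.0 FPKM in B16-F10 KO libraries, against 32.7, 37.4, 32.4 and 35.4 FPKM in B16-F10 WT libraries. Thus 64.1% of the WT level remained in KO cells (log2 fold change -0.62, limma, adjusted p = 0.00869), while the log2 fold change in OE cells was 4.95 (adjusted p = 1.12e-09). Depth, estimated from the spacing of low values, was 32.4 to 38.3 M fragments for MC38 libraries and 32.4 to 48.7 M for B16-F10 libraries. Markers of the labelled colon origin were nearly missing from MC38: 0 of 10 intestinal epithelium markers averaged 1 FPKM, their sum was 0.183 to 0.221 FPKM in OE and 0.0889 to 0.140 FPKM in WT, and Cdx1, Cdx2, Fabp1 and Hnf4a were listed at 0 in every library. The melanocyte markers were all present in B16-F10, 9 of 9 tested, with a summed level of 16720 to 17250 FPKM in KO and 13042 to 17070 FPKM in WT. Of these markers 0 were called, where 2.23% of all genes tested in B16-F10 were, so that count is not by itself a result about them. In B16-F10, WT libraries 3 and 4 stood apart from the other libraries on the first principal component, at 17.8 each against -10.3 to -1.91, and KO library 4 stood apart from the other KO libraries on the second, at -1.04 against -11.1 to -8.68. Whether libraries of 1 group are independent cultures is not in the labels, so each p-value is set against a spread that may be technical only.

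Promoter sequences are shown for the 4 epithelial members that a RefSeq table covers, because these genes differed in MC38 and because E-boxes are the letters through which Snai2 and Zeb1 are known to act. Each runs from 250 bases before to 50 bases after the RefSeq start, 5′ to 3′ on the gene's strand. Build GRCm38.p6 was used, an earlier assembly than the GRCm39 named in the submitters' processing notes, for chr15:102004293-102004592 (minus strand), chr15:102027966-102028265 (plus), chr15:101412153-101412452 (plus) and chr17:87635729-87636028 (plus). Capitals mark the E-box CAGGTG on either strand, which reads CACCTG on the other.
Krt8: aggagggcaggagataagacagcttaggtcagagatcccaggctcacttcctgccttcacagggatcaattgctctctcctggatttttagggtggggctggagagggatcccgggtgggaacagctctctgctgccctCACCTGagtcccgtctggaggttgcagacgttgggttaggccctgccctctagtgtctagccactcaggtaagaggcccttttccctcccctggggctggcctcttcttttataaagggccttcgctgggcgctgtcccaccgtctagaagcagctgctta
Krt18: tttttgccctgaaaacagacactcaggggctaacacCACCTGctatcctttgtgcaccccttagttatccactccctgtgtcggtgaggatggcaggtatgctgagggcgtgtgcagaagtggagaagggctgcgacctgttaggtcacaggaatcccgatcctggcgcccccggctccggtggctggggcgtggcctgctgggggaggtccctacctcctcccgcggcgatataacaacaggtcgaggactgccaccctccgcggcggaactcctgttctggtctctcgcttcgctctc
Krt7: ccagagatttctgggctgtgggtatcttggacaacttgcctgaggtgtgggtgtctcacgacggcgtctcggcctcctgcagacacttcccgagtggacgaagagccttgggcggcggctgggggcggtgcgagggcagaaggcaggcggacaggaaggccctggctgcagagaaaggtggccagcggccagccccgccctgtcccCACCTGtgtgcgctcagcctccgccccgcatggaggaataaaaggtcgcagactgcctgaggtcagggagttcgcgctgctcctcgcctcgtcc
Epcam: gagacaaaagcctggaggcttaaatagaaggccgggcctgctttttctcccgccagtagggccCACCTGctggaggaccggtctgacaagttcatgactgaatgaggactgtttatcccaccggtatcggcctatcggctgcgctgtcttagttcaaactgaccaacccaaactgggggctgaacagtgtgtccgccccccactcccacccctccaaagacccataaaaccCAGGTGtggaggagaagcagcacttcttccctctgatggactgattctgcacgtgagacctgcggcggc
Counted in bases from the start, the E-box began at position -111 in Krt8, -214 in Krt18, -44 in Krt7, and -187 and -19 in Epcam. It was not found in the same window of Vim, the fifth member in the table. Of 32851 promoter windows of 300 bases, 20.2% held it. The match was present in Krt8, which rose in MC38 OE cells, as well as in Krt18, Krt7 and Epcam, whose levels were lower there. A match is a description of the letters and not evidence of a bound site.

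The first comparison asked how the 10 genes differed between MC38 OE and MC38 WT cells. The simple-epithelial keratin pair came apart: Krt8 rose 2.93-fold while its partner Krt18 fell to 1.88% of the WT level. The other epithelial genes, all under 1 FPKM on average, were lower in every OE library than in any WT library, with Epcam listed at 0 in all 3 OE libraries. For Krt19 this gap lay within counting error. Among mesenchymal genes, Vim rose slightly and Cdh2 fell slightly. The transcription factor Snai2 fell to 34.0% of its WT level, while Zeb1 was slightly higher.

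Of the members, 6 averaged at least 1 FPKM and were tested, and 6 of 6 passed an adjusted p of 0.05, 3 higher and 3 lower. Krt18, among the lower, was tested only through its WT libraries, where it is high, so the filter favoured its call. Over all 10748 genes tested in MC38, 47.5% passed, 23.9% higher and 23.6% lower, so the count of members called is not by itself a result about them. Likewise no member had overlapping groups, where 50.6% of tested genes and 22.5% of genes averaging 0.1 to 1 FPKM had none. The sizes of the changes in Krt8, Krt18 and Snai2 exceeded those in Vim, Cdh2 and Zeb1, which were 0.30 or less on the log2 scale.

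**Figure D1:**
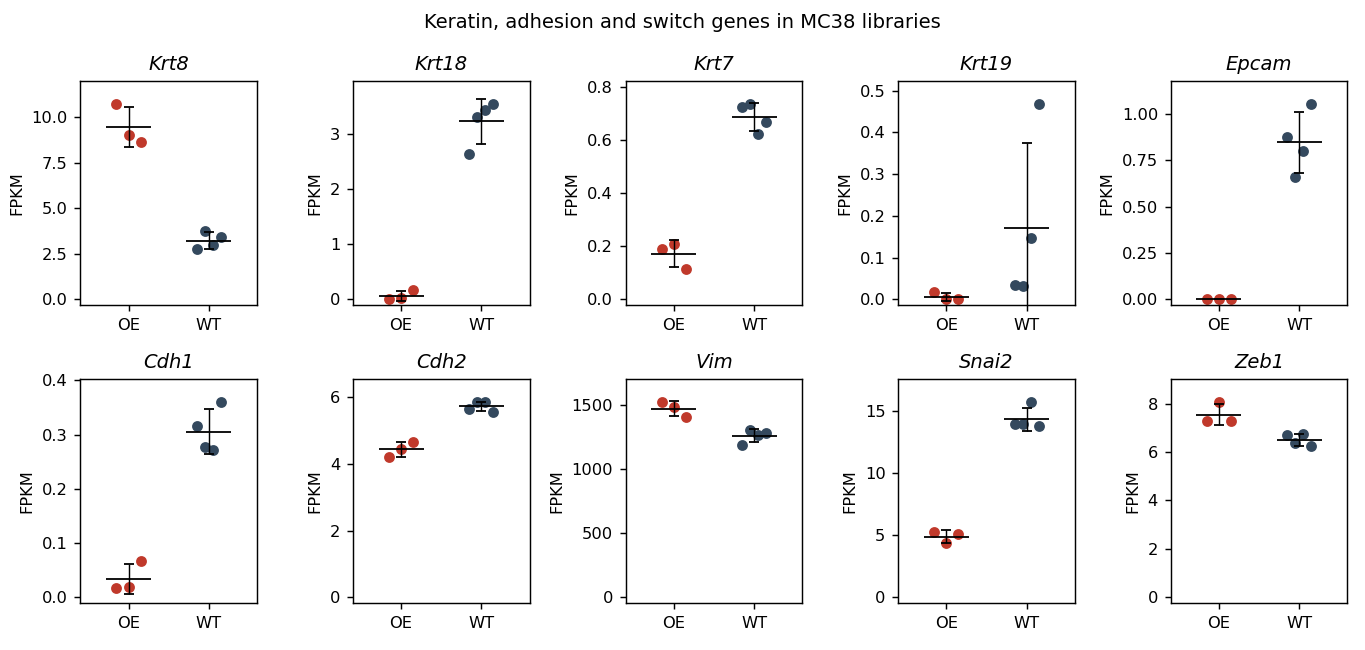
FPKM (vertical axis, linear and starting near 0) of the 10 genes in MC38 OE libraries (red, n = 3) and MC38 WT libraries (dark, n = 4). Each point is 1 library, horizontal lines are group means and bars are SD (that of Krt19 in WT runs on below the axis). The groups do not overlap for any of the 10 genes, and OE is higher for Krt8, Vim and Zeb1 and lower for the other 7.

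Krt8, the type II keratin of simple epithelia, stood at 10.7, 9.03 and 8.65 FPKM in OE libraries, against 2.74, 3.74, 2.99 and 3.43 FPKM in WT libraries. Every OE library lay above every WT library. The group means were 9.45 ± 1.06 FPKM in OE and 3.22 ± 0.45 FPKM in WT (SD, n = 3 and 4), a ratio of 2.93 and a log2 fold change of 1.31 on the log2(FPKM + 1) scale (SE 0.10, limma, adjusted p = 2.61e-06). This scale makes changes of low genes look smaller than they are. Krt8 has a processed copy, Krt8-ps, with which reads could be shared. That copy was listed at no more than 0.0949 FPKM in OE and 0.256 FPKM in WT. How shared reads were assigned is not given in the sources used here, and sharing was not tested.

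Krt18, the type I partner of Krt8, stood at 0, 0.02 and 0.162 FPKM in OE libraries, against 2.64, 3.32, 3.43 and 3.54 FPKM in WT libraries. At the estimated depth and with an exon length of 1437 bases, the OE values correspond to 0, 1 and 8 fragments, against 140 to 182 fragments in WT libraries. Krt18 was almost undetected in OE cells and easily detected in WT cells. The mean was 0.0607 ± 0.0883 FPKM in OE and 3.23 ± 0.407 FPKM in WT (SD, n = 3 and 4), so that OE held 1.88% of the WT level, or 0.309% without OE library 3. The log2 fold change was -1.99 (SE 0.10, limma, adjusted p = 1.55e-07), and -4.50 with a pseudocount of 0.1. Krt18 reached the minimum mean of 1 FPKM for testing only through its WT libraries.

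In each library the level of Krt8 relative to Krt18 was taken as log2((Krt8 + 0.1)/(Krt18 + 0.1)). It was 6.75, 6.25 and 5.06 in OE libraries, against 0.05, 0.17, -0.19 and -0.04 in WT libraries. The keratins were thus close to equal per length in every WT library and far from equal in every OE library. The difference of the means was 6.02 (6.02 ± 0.87 in OE and 0.00 ± 0.15 in WT, SD, n = 3 and 4; two-sided exact permutation test, p = 0.0286, the smallest that 35 splits allow). Since Krt8 and Krt18 were each without overlap and in opposite directions, this p-value follows from their values and adds no support. The size of the difference depends on the pseudocount because Krt18 is near 0 in OE. The difference was 3.30 with a pseudocount of 1 and 7.99 with 0.01, settings chosen after seeing the data.

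**Figure D2:**
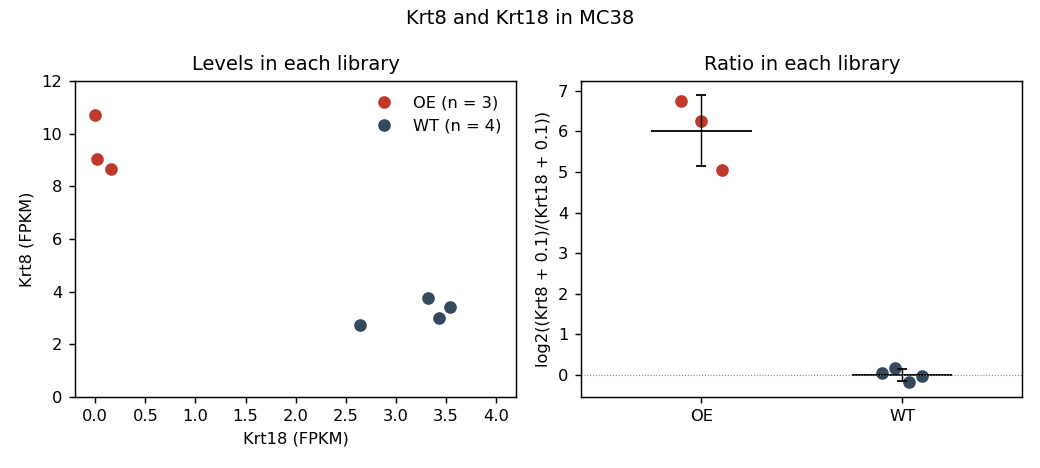
Left, Krt8 against Krt18 in FPKM for each MC38 library (OE red, n = 3; WT dark, n = 4). Right, the log2 ratio of the 2 keratins in each library, with group means and SD; OE libraries lie at 5.06 to 6.75 and WT libraries at -0.19 to 0.17.

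Krt8 and Krt18 are neighbours on chromosome 15, with 0 other protein-coding genes between them in the RefSeq order. Neighbours were chosen after the values of the pair had been seen, as the 4 nearest protein-coding genes on either side. On one side, the keratins Krt76, Krt4, Krt79 and Krt78 averaged at most 0.0493 FPKM in either MC38 group. On the other side, Eif4b, a translation initiation factor, stood at 281 ± 3.69 FPKM in OE and 291 ± 5.86 FPKM in WT and was not called (limma, adjusted p = 0.199). Tns2, the focal adhesion protein tensin 2, rose to 16.3 ± 0.27 FPKM in OE, against 10.5 ± 0.364 FPKM in WT (log2 fold change 0.59, adjusted p = 3.59e-06), and Igfbp6 rose by 0.45 (adjusted p = 0.00493). Spryd3 was not called (0.09, adjusted p = 0.165). The 4 keratin neighbours were too low to test, and of the 4 that were tested 2 rose and 0 fell. Over all genes tested in MC38, 47.5% were called, 23.9% higher and 23.6% lower, so this count is not by itself a result about the neighbours.

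Krt7, a type II keratin of ductal epithelia, stood at 0.190, 0.210 and 0.114 FPKM in OE libraries, against 0.722, 0.733, 0.623 and 0.666 FPKM in WT libraries. The OE mean of 0.171 FPKM was 25% of the WT mean of 0.686 FPKM. Krt19, a type I keratin of simple epithelia, stood at 0.0165, 0 and 0 FPKM in OE libraries, against 0.0341, 0.0331, 0.147 and 0.467 FPKM in WT libraries. WT library 4 held most of the Krt19 signal of its group, so its WT mean rests largely on 1 library. Krt7 and Krt19 were below the minimum for testing, so these are levels only. Krt7 is low per length, with an exon length of 7049 bases, and had an estimated 150 to 197 fragments per WT library and 27.4 to 51.3 per OE library. Krt19 had 2.3 to 28.1 per WT library and 0 to 1.2 per OE library.

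Epcam, the epithelial cell adhesion molecule, was listed at 0 in all 3 OE libraries, against 0.877, 0.658, 0.797 and 1.05 FPKM in WT libraries. At the estimated depth, a count of 0 allows up to 0.0357 to 0.0400 FPKM per OE library (3 fragments, counting error only), which is below every WT library. Cdh1, E-cadherin, stood at 0.0162, 0.0179 and 0.0657 FPKM in OE libraries, against 0.315, 0.277, 0.271 and 0.360 FPKM in WT libraries, so that the OE mean was 10.9% of the WT mean, or 5.58% without OE library 3. As listed, all 4 untested members, Krt7, Krt19, Epcam and Cdh1, were thus lower in OE without overlap. For Krt19 the gap lay within counting error, since a count of 0 allows up to 0.0467 and 0.0473 FPKM in OE libraries 2 and 3. Both exceed the 0.0341 and 0.0331 FPKM of Krt19 in WT libraries 1 and 2. Among all genes with a mean under 1 FPKM and a value above 0 in any library, 3.46% were lower in OE without overlap, and among those averaging 0.1 to 1 FPKM, where Krt7, Epcam and Cdh1 fall, 7.4% were. In bulk RNA, fewer cells that carry a transcript and less of it per cell cannot be told apart.

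Vim, the intermediate filament of mesenchymal cells, was by far the most abundant of the 10 genes, at 1523, 1482 and 1407 FPKM in OE libraries, against 1192, 1307, 1268 and 1279 FPKM in WT libraries. It rose slightly, with a ratio of means of 1.17 and no overlap (log2 fold change 0.22, SE 0.04, limma, adjusted p = 0.00233). Cdh2, N-cadherin, stood at 4.22, 4.46 and 4.67 FPKM in OE libraries, against 5.64, 5.86, 5.85 and 5.57 FPKM in WT libraries. It fell to 77.7% of the WT level, again without overlap (log2 fold change -0.30, SE 0.06, limma, adjusted p = 0.00142). N-cadherin and E-cadherin, which often change in opposite directions in an epithelial-mesenchymal transition, were both lower in OE libraries, Cdh1 as a level only.

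Snai2, the transcription factor Slug, stood at 5.27, 4.32 and 5.04 FPKM in OE libraries, against 13.9, 13.9, 15.7 and 13.8 FPKM in WT libraries. The OE mean of 4.88 ± 0.497 FPKM was 34.0% of the WT mean of 14.3 ± 0.925 FPKM (SD, n = 3 and 4; log2 fold change -1.39, SE 0.07, limma, adjusted p = 1.84e-07). Zeb1, a zinc finger repressor of Cdh1, stood at 7.30, 8.07 and 7.29 FPKM in OE libraries, against 6.70, 6.36, 6.73 and 6.25 FPKM in WT libraries. The difference was small, with a ratio of means of 1.16 (log2 fold change 0.19, SE 0.06, limma, adjusted p = 0.0207), and it did not pass without OE library 2 (adjusted p = 0.0930) or without WT library 4 (adjusted p = 0.0524).

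Antisense or opposite-strand genes overlap Krt8, Krt7, Cdh2 and Zeb1 in GENCODE M21, and the strand setting of the counting is not given in the sources used here.

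Genes whose library values ran closest to those of Krt8, Krt18 and Vim in MC38 were found by the smallest root-mean-square difference of centred log2(FPKM + 1) values over 7 libraries. For Krt8 these were Irf9, a subunit of the interferon-activated complex ISGF3 (0.0810), Ttyh2 (0.0876) and Irf7, an interferon regulatory factor (0.107). Irf9 stood at 9.94, 8.37 and 8.24 FPKM in OE libraries, against 2.78, 3.74, 3.35 and 3.71 FPKM in WT libraries, which is close to the levels of Krt8 library by library. Irf7 rose by a larger factor than Krt8, at 2.55 to 2.82 FPKM in OE and 0.336 to 0.586 FPKM in WT. For Krt18 the nearest were Cox6a2 (0.0995), Steap1 (0.136) and Prl2c3 (0.192), the last of which has close paralogs. The matches of Irf7 and of the Krt18 genes rest on the 1 added to FPKM, which shrinks changes of low genes. Cox6a2 stood at 27.8 to 30.3 FPKM in OE and 94.8 to 128 FPKM in WT, whereas Krt18 was near 0 in OE. For Vim the nearest were Cbx6 (0.0202), the cyclin Ccnb2 (0.0219) and Wnt7b (0.0272). This measure compares profiles and does not bear on shared function.

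Other epithelial genes in MC38 were mostly too low to test, and many resembled Epcam. Of 26 junction and polarity genes 5 were tested and 2 fell, among them Cldn12, a claudin, to 35.3 ± 1.41 FPKM in OE, against 48.8 ± 1.92 FPKM in WT (log2 fold change -0.45, limma, adjusted p = 1.6e-05). The list's median was -0.15, against -0.009 for all tested genes. Of all tested genes 47.5% were called and 23.6% were lower, so the count of 2 is not by itself a result about the list. Of 21 epithelial regulators 1 was tested, Klf5, a zinc finger factor of epithelial progenitors, which fell to 1.55 ± 0.118 FPKM in OE, against 2.83 ± 0.12 FPKM in WT (-0.59, adjusted p = 6.47e-05). Genes below the minimum are given as levels.

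Among 21 junction genes under 1 FPKM but above 0 in any library, 9 were lower in OE without overlap, 1 was higher and 11 overlapped. Among 15 such regulators, 8 were lower, 0 higher and 7 overlapped. The genes listed at 0 in every OE library and above 0 in every WT library included Cd24a, a surface sialoglycoprotein (0.692 to 0.893 FPKM in WT), Perp, a desmosomal protein (0.187 to 0.399), the claudin Cldn4 (0.175 to 0.370), the serine protease St14, matriptase (0.0577 to 0.329), and Spint1, its inhibitor (0.103 to 0.309). The related inhibitor Spint2 stood at 0 to 0.0240 FPKM in OE and 0.288 to 0.557 FPKM in WT, and the epithelial splicing factor Esrp1 at 0 to 0.0373 FPKM in OE and 0.0973 to 0.188 FPKM in WT. Cldn1 went the other way, at 0.133 to 0.272 FPKM in OE and 0.00830 to 0.0321 FPKM in WT. Grhl1, Grhl2, Muc1 and Pkp3, which averaged 0.1 to 1 FPKM, overlapped between groups. These genes were singled out after their values were seen. Among all genes of this kind 3.46% were lower without overlap, and 7.4% of those averaging 0.1 to 1 FPKM, as given for the members. In that range, 6 of 8 junction genes were lower, 1 was higher and 1 overlapped. Of 7 regulators in that range, 4 were lower and 3 overlapped.

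**Figure D3:**
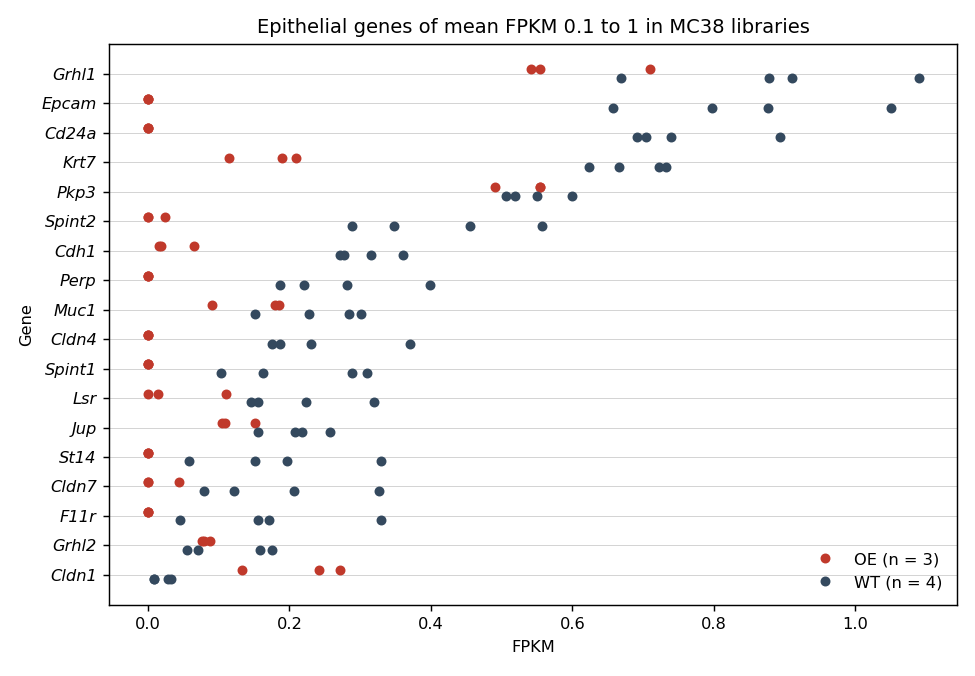
FPKM (horizontal axis, linear) in each MC38 library for the 18 genes that average 0.1 to 1 FPKM among the 4 untested members, the junction genes and the epithelial regulators (OE red, n = 3; WT dark, n = 4; each point is 1 library). OE libraries lie at or near 0 for Epcam, Cd24a, Spint2, Perp, Cldn4, Spint1, St14 and F11r, while Grhl1, Pkp3, Muc1 and Grhl2 overlap and Cldn1 is higher in OE.

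Of 20 other keratins only Krt10, a keratin of differentiated epidermis, was tested in MC38, at 1.74 ± 0.19 FPKM in OE and 1.91 ± 0.385 FPKM in WT (limma, adjusted p = 0.594). Krt16, untested, averaged 0.677 FPKM in OE and 0.213 FPKM in WT. Of 14 other intermediate filament and linker genes 5 were tested, 0 rose and 2 fell: the neural stem cell filament Nes (-0.40, adjusted p = 0.00158), which reached the minimum only through WT, where it is high, and the nuclear lamin Lmnb2 (-0.32, adjusted p = 0.000115), with a list median of -0.02. Of 19 other cadherins, catenins and partners 9 were tested, 4 rose and 2 fell, with a median of 0.17. Over all tested genes 47.5% were called, 23.9% higher and 23.6% lower, which bears on the counts of the filament and cadherin lists alike. Vcl, vinculin, rose to 91.7 ± 2.62 FPKM in OE, against 50.5 ± 2.45 FPKM in WT (0.85, adjusted p = 1.82e-07), and the catenins Ctnnb1 (0.23) and Ctnna1 (0.21) rose less. Afdn rose by 0.17 (adjusted p = 0.0175) but did not pass without OE library 1 or 3 (adjusted p = 0.0509 and 0.0578), and Nectin3 and Nectin2 fell (-0.35 and -0.27).

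Of 18 other transcription factors of the switch 14 were tested in MC38, 7 rose, 2 fell and 5 were not called, with a median of 0.20, where 47.5% of all tested genes were called and 23.9% were higher. The homeobox factors Prrx1 and Prrx2 rose, Prrx1 to 65.8 ± 1.50 FPKM in OE, against 40.5 ± 1.58 FPKM in WT (0.69, adjusted p = 4.34e-07), and Prrx2 by 0.86 (adjusted p = 0.00236). Sox9 (0.53), Tcf4 (0.50) and Snai1, the paralog of Snai2 (0.41, not called with no filter, where the adjusted p was 0.0565), also rose, while Sox4 (-0.33) and Zeb2, the paralog of Zeb1, fell (-0.30, limma, adjusted p = 0.00131). Zeb2 stood at 9.31 ± 0.61 FPKM in OE and 11.7 ± 0.45 FPKM in WT, so that Zeb1 and Zeb2 moved in opposite directions. Snai1 was named after its value was seen, as the paralog of a member, and Hmga2 rose more (0.478).

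Mesenchymal effector genes had 16 of 24 members tested, 9 higher, 4 lower and 3 not called, with a median of 0.28, where 23.9% of all tested genes were higher and 23.6% lower. Fbn1, the microfibril protein fibrillin 1, rose to 56.4 ± 2.31 FPKM in OE, against 18.1 ± 2.70 FPKM in WT (1.6, limma, adjusted p = 4.82e-07). S100a4, a calcium-binding protein of motile cells, rose to 1114 FPKM in OE, against 615 FPKM in WT (0.86, adjusted p = 1.01e-07), and the tropomyosin Tpm1 rose to 619 FPKM, against 364 FPKM (0.77, adjusted p = 3.85e-08). Axl (-0.22), Sparc (-0.19) and Cald1 (-0.18) were among those that fell. Markers of fibroblasts, with Fap also in the mesenchymal list, moved with these genes: of 10 listed 5 were tested and 5 rose, of which Lum and Pdgfrb reached the minimum only through OE, where they are high, and were not tested without any 1 OE library. The leading marker was Dcn, decorin, at 320 ± 2.49 FPKM in OE and 65.6 ± 2.61 FPKM in WT, and the summed level of the 10 markers was 658 to 681 FPKM in OE libraries and 181 to 187 FPKM in WT libraries. Leukocyte markers summed to 3.66 to 4.45 FPKM in OE and 2.26 to 3.22 FPKM in WT, with Cd3e and Tyrobp at 0 throughout, and endothelial markers to 2.94 to 3.65 FPKM in OE and 4.35 to 5.72 FPKM in WT, with Cldn5 and Emcn at 0 throughout. Of these, Cd68 rose (0.38, adjusted p = 0.0163, and 0.0714 without OE library 1) and Egfl7 fell (-0.48, adjusted p = 0.00258). Melanocyte markers summed to 76.6 to 79.1 FPKM in OE and 74.3 to 78.3 FPKM in WT, nearly all of it Gpnmb, which was not called (0.05, adjusted p = 0.277). The part of these markers in the keratin and mesenchymal values was not tested.

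The second comparison asked how the same genes differed between B16-F10 KO and B16-F10 WT cells. In this melanoma line 4 of the 6 epithelial genes were listed at 0 throughout, Krt7 was close to it and Cdh1 was low but present. Of the tested members 0 of 3 passed the test, against 2.23% of 10902 genes, 1.33% higher and 0.899% lower. Cdh2 was higher in each KO library than in any WT library but did not pass, and Vim and Snai2 overlapped. Krt8, Krt18, Krt19 and Epcam were listed at 0 in each of 8 libraries. At the estimated depth a count of 0 allows at most 0.0537 FPKM in any KO library and 0.0644 FPKM in any WT library for these 4 genes.

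**Figure D4:**
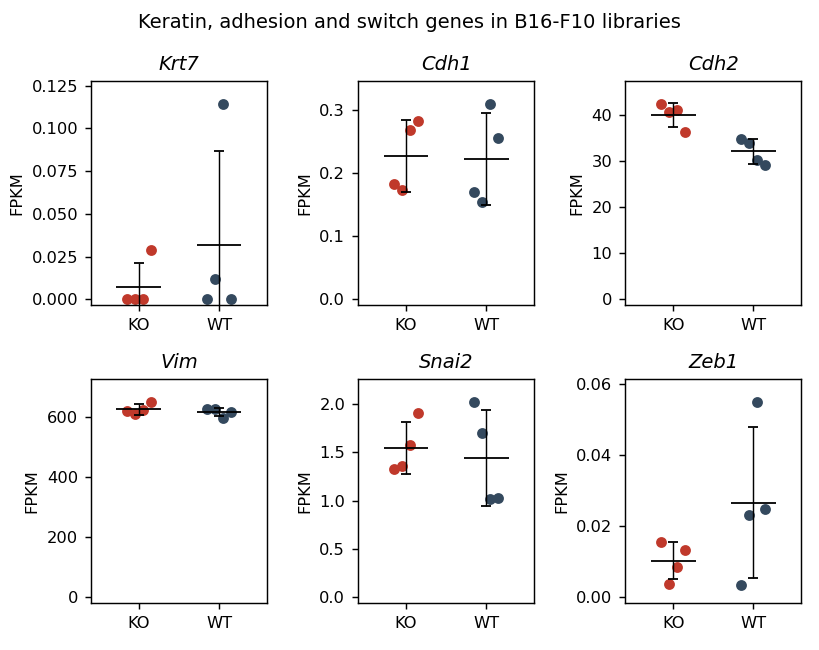
FPKM (vertical axis, linear and starting near 0) of 6 genes in B16-F10 KO libraries (red, n = 4) and B16-F10 WT libraries (dark, n = 4); Krt8, Krt18, Krt19 and Epcam were at 0 in all 8 libraries and are not drawn. Each point is 1 library, lines are means and bars are SD; Cdh2 is the only one of the 6 without overlap, at 36.3 to 42.3 FPKM in KO and 29.2 to 34.9 FPKM in WT.

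Cdh2 stood at 42.3, 40.6, 41.1 and 36.3 FPKM in KO libraries, against 34.9, 34.0, 30.3 and 29.2 FPKM in WT libraries. The lowest KO value was library 4 and the lowest WT values were libraries 3 and 4, the libraries that stood apart. The ratio of means was 1.25 and the log2 fold change 0.31, with a 95% interval of 0.15 to 0.47 before adjustment (SE 0.07, limma, adjusted p = 0.0563). It passed without KO library 4 (0.36, adjusted p = 0.0373), and without any other single library it did not. Of all genes tested in B16-F10, 13.9% had groups without overlap.

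Vim stood at 622, 611, 624 and 651 FPKM in KO libraries, against 627, 629, 598 and 620 FPKM in WT libraries. The groups overlapped, and the log2 fold change of 0.02 had a 95% interval of -0.08 to 0.12 (limma, adjusted p = 0.849). Snai2 stood at 1.33, 1.36, 1.58 and 1.91 FPKM in KO libraries, against 2.02, 1.70, 1.02 and 1.03 FPKM in WT libraries. WT libraries 3 and 4 were lower than all KO libraries and WT library 1 was above all of them, and the log2 fold change was 0.08 (95% interval -0.25 to 0.40, limma, adjusted p = 0.807). The difference changed sign without WT library 3 (-0.009) or WT library 4 (-0.006), so no direction is given.

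Cdh1 stood at 0.183, 0.173, 0.269 and 0.283 FPKM in KO libraries, against 0.170, 0.154, 0.309 and 0.256 FPKM in WT libraries. Zeb1 stood at 0.0156, 0.0037, 0.0084 and 0.0132 FPKM in KO libraries, against 0.0035, 0.0232, 0.0548 and 0.0248 FPKM in WT libraries. Krt7 was above 0 in KO library 4 only, at 0.0287 FPKM, and in WT libraries 2 and 3, at 0.0120 and 0.114 FPKM. All 3 overlapped between groups. Of genes averaging 0.1 to 1 FPKM, as Cdh1 did, 7.18% had no overlap and 3.57% were lower in KO without it, and of all genes under 1 FPKM and above 0 in any library 1.6% were. With limma 243 genes were called in this comparison and 2325 had an unadjusted p of at most 0.05, among them Cdh2.

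Of the related lists few genes passed in B16-F10, where 2.23% of all tested genes were called. Among 8 tested cadherins and partners 1 rose, Nectin3 (0.22, limma, adjusted p = 0.0494), and among 13 tested mesenchymal effectors 1 rose, Cald1 (0.24, adjusted p = 0.0478). Cald1 did not pass without any 1 of the 8 libraries (adjusted p of 0.0635 to 0.163), and Nectin3 passed without KO library 4 alone (0.0685 to 0.154 without any other). None passed among 8 tested switch factors, 7 junction genes, 7 other filaments and 1 other keratin, and 0 epithelial regulators could be tested. That keratin, Krt80, was the most abundant keratin examined in B16-F10, at 10.9, 10.7, 10.2 and 9.14 FPKM in KO libraries, against 8.66, 9.01, 3.82 and 4.35 FPKM in WT libraries. The groups did not overlap, but WT libraries 3 and 4 were far below WT libraries 1 and 2, and the difference was not called (0.66, SE 0.23, adjusted p = 0.141). Zeb2 stood at 28.8 ± 1.05 FPKM in KO and 24.8 ± 1.76 FPKM in WT (0.21, adjusted p = 0.0840). Of the fibroblast markers Pdgfrb rose to 3.25 FPKM in KO, against 1.76 FPKM in WT (0.63, adjusted p = 0.00869; 0.0522 without KO library 2), and the list summed to 6.43 to 9.29 FPKM in KO and 5.11 to 6.44 FPKM in WT, with Dpt and Thy1 at 0. Leukocyte markers summed to 2.63 to 4.35 FPKM in KO and 1.94 to 3.29 FPKM in WT, endothelial markers to 15.7 to 17.5 FPKM in KO and 11.3 to 16 FPKM in WT, and intestinal markers to 0.517 to 0.686 FPKM in KO and 0.604 to 0.715 FPKM in WT. Of these, 1 leukocyte and 1 endothelial marker were tested and 0 called, and 0 intestinal markers could be tested. The part of these markers in the member values was not tested.

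**Figure D5:**
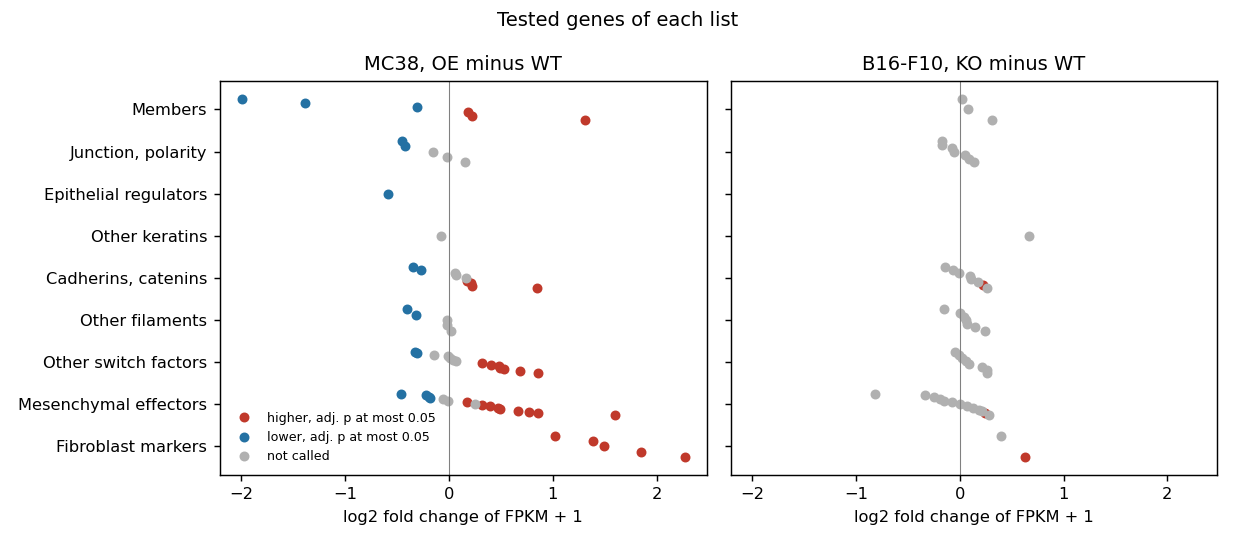
Log2 fold change of FPKM + 1 (horizontal axis, the same scale in both panels) for every tested gene of the 10 members and 8 related lists, in MC38 (OE minus WT, left) and B16-F10 (KO minus WT, right). Each point is 1 gene, coloured by call. In MC38 the junction and epithelial regulator lists hold lower calls and most fibroblast and mesenchymal calls are higher. In B16-F10 3 list genes were called.

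The 2 wild-type lines also differed in which members they carried, as levels only, since the tables were made separately and no test was run between them. Zeb1 averaged 6.51 FPKM in MC38 WT and 0.0266 FPKM in B16-F10 WT, while Zeb2 averaged 11.7 FPKM in MC38 WT and 24.8 FPKM in B16-F10 WT. Cdh2 averaged 5.73 FPKM in MC38 WT and 32.1 FPKM in B16-F10 WT, and Snai2 14.3 FPKM in MC38 WT and 1.44 FPKM in B16-F10 WT. In MC38 WT the order per length was Vim, Snai2, Zeb1, Cdh2, then Krt18 and Krt8, then Epcam, Krt7, Cdh1 and Krt19, with Krt18 and Krt8 not apart beyond their spread, and likewise Epcam and Krt7, and Cdh1 and Krt19. In MC38 OE cells the order of the leading genes was Vim, Krt8, Zeb1, Snai2 and Cdh2, with Snai2 and Cdh2 not apart beyond their spread. In B16-F10 the order was Vim, Cdh2, Snai2 and Cdh1 in KO and WT cells alike.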

How the data were processed

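The authors deposited FPKM values per gene in 1 table for MC38 and 1 for B16-F10, from 15 libraries made with a TruSeq Stranded mRNA kit according to the protocols in the labels. The submitters' processing notes name GRCm39 and DESeq2 without versions; the sources used here do not name an aligner, a counter or an annotation. Columns were matched to samples by library name, with 0 left over, and summed to 482580 to 511160. Depth was estimated from low FPKM values of single-transcript genes with GENCODE M21 exon lengths (84.4 to 87.7% of these values lay within 0.1 of a whole fragment). Since not nearly all values came out whole, no count model was used.

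Each line was tested alone, on a log2 scale with 1 added to FPKM, in limma 3.58.1 under R 4.3.3 (mean-variance trend, mean FPKM of at least 1, Benjamini-Hochberg over all genes tested, call at 0.05); the method was tested on simulated data. The members and the 12 gene lists were chosen with earlier results of these data known, so no adjustment over a list alone is given. Named were all members, Ssbp4, up to 4 called genes per list, line and direction with the largest changes, or the 2 most abundant where none was called, and 3 genes nearest in profile to Krt8, Krt18 and Vim; others are stated as chosen after their values were seen. Some genes this rule takes are not reported here. Alternatives changed the pseudocount, filter, scaling, variance model, library weights and design, and left out each library. Plots were made in matplotlib 3.10.9 (Python 3.11.15).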

Additional observations from a re-analysis of the deposited data

Results flagged for a closer look

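In groups of 4 libraries, 3 of 22 sets of member values held 1 library far from the other 3. Chance gives about 1 in 20 for values without ties. That rate does not apply to the Krt7 sets named below, which hold repeated values of 0, so no excess is read from the count. Snai2 in MC38 WT library 3 was 15.7 FPKM, against 13.8 to 13.9 FPKM in the other WT libraries, and every WT library remained above every OE library. Krt7 in B16-F10 KO library 4 was 0.0287 FPKM and 0 in the other KO libraries, and Krt7 in B16-F10 WT library 3 was 0.114 FPKM, against 0 to 0.0120 FPKM in the other WT libraries. These Krt7 values are too low to test.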

How the results depend on the processing

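In MC38, Krt8, Krt18, Cdh2, Vim and Snai2 kept their direction and call under every alternative in which they were tested; Krt18, like Snai2 in B16-F10, was not tested with a minimum of 5 FPKM. Log2 fold changes ranged over 1.23 to 1.53 for Krt8, -4.50 to -1.95 for Krt18 and -1.54 to -1.32 for Snai2. Without single libraries 5 to 6 members and 4307 to 5109 genes were called, and the log2 Krt8 to Krt18 ratio differed by 5.66 to 6.50, where too few splits remain for an exact p of 0.05. The replicate numbers did not pair libraries (correlations of same-numbered deviations -0.288 to -0.066 in MC38 and -0.298 to 0.165 in B16-F10). With the replicate number as a block, 3917 genes were called in MC38 and Zeb1 was not (adjusted p = 0.114, and 0.0159 to 0.114 over its alternatives). In B16-F10 12 genes and 0 members were then called. Ssbp4 (-0.62, limma, adjusted p = 0.089) and Pdgfrb (0.63, adjusted p = 0.0928) were among the B16-F10 genes that lost their calls with that block.

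In B16-F10 the gene count was 243, and 140 with a minimum of 0.1 FPKM, 73 with no filter, 776 with library weights and 23 to 414 without single libraries (27, 23, 26 and 414 without KO libraries 1 to 4, and 93, 119, 44 and 41 without WT libraries 1 to 4). The share of higher calls, 59.7%, was 73.1% with a common total and 42.9% with median-of-ratios scaling. The member count was 1, Cdh2, with a common total (adjusted p = 0.0435), with library weights (adjusted p = 0.0224) and without KO library 4, and ranged from 0 to 1 without single libraries. Vim changed sign with median-of-ratios scaling (-0.001) and library weights (-0.001), and Snai2 with library weights (-0.027) and without WT library 3 (-0.009) or 4 (-0.006), between -0.009 and 0.185 without single libraries. The cause was not tested. Precision for genes under 0.1 FPKM is limited to a few fragments per library.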
